A study of Mus musculus with 46 samples.

Results

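Disruption of Pbrm1 was examined in mouse synovial sarcomas driven by the SS18::SSX1 fusion (hSS1), by setting the 4 tumour libraries whose labels carry both hSS1 and PBRM1 against the 5 libraries labelled hSS1 alone, 9 of the 46 samples of the series. In both groups the human fusion was expressed from the Rosa26 locus after TATCre protein was injected into the limb of young pups, and each tumour came from its own mouse. The hSS1 Pbrm1-fl mice also carried floxed Pbrm1 alleles, so that the same Cre that switched on the fusion could remove 1 exon of Pbrm1 in the cells it entered. The labels give the hSS1 control mice no Pbrm1 allele, and give neither sex nor age for either group. Tumours were taken when the mice became unwell, so the libraries hold whatever host cells each tumour contained, and in bulk RNA fewer cells of a type and less RNA per cell cannot be told apart. RNA was sequenced after removal of ribosomal RNA, and 10903432 to 14130024 reads or read pairs per control library and 10137668 to 11217470 per Pbrm1-fl library were counted in genes.

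Pbrm1 encodes BAF180, the bromodomain subunit that marks the polybromo form (PBAF) of the BAF chromatin remodelling complexes. BAF complexes slide or evict nucleosomes and exist as canonical (CBAF), GBAF and PBAF forms, which share an ATPase core and differ in a few subunits. SS18, the partner altered in synovial sarcoma, belongs to CBAF and GBAF but not to PBAF. Synovial sarcoma can be monophasic, made of spindle cells, or biphasic, with epithelial glands beside the spindle cells, and its cells express developmental transcription factors and neural genes unusual for a limb tumour.

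Pbrm1 itself was lower in the Pbrm1-fl tumours but far from absent. It stood at 316, 275, 338, 358 and 373 CPM (counts scaled to the TMM-adjusted total of each library) in hSS1 control tumours 1 to 5, and at 209, 252, 102 and 226 CPM in Pbrm1-fl tumours 1 to 4. Every Pbrm1-fl tumour was below every control tumour, with tumour 3 lowest, at a log2 fold change of -0.75 ± 0.24 (standard error). The difference reached an unadjusted p of 0.013 and an adjusted p of 0.193 by edgeR's quasi-likelihood test, so it did not pass over all 17786 genes tested. Counts were summed over the whole gene, so reads from the exons that Cre leaves in place, and from host cells that Cre did not enter, stayed in the total. The paper proposes that selection in hSS1 tumours favoured cells that kept an unrecombined floxed Pbrm1 allele, which was not tested here. Genes within 5 Mb of Pbrm1 on chromosome 14 showed no shared shift: 33 of the 79 tested, Pbrm1 included, were lower, with a median log2 fold change of 0.123.

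No other BAF subunit passed adjustment, and those specific to PBAF were near their control levels. Arid2, the other large PBAF-specific subunit, had 255 ± 19.6 CPM in controls (SD, n = 5) and 247 ± 12.2 CPM in Pbrm1-fl tumours (SD, n = 4). Brd7 and Phf10, which complete the PBAF module, differed by -0.14 ± 0.25 and 0.12 ± 0.16 on the log2 scale. Of the 5 CBAF-specific genes, Arid1a, Arid1b, Dpf1, Dpf2 and Dpf3, none reached an unadjusted p of 0.05, and Brd9, the defining GBAF subunit, differed by 0.03 ± 0.14. Bicral, a GBAF subunit, was higher at 0.39 ± 0.13 on the log2 scale, with 170, 169 and 173 CPM in Pbrm1-fl tumours 1, 2 and 4 but 130 CPM in tumour 3, within the control range of 108 to 139 CPM. Among the 15 shared subunits tested, Bcl7a (-0.81 ± 0.25) and Actl6a (-0.41 ± 0.15) were lower and Smarcd3 (0.54 ± 0.23) was higher at unadjusted p values of 0.0109, 0.021 and 0.0443 by the edgeR test, and none of these passed adjustment. Smarca2, the alternative ATPase, had 605 CPM in control 4 against 155 to 214 CPM in the other controls, and 344 to 480 CPM in the Pbrm1-fl tumours, so the groups overlapped. Actl6b, the neuronal counterpart of Actl6a, was too low to be tested, with 2.23 to 4.59 CPM in controls 1 to 3 and at most 0.0905 CPM elsewhere.

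A single gene, Rragd, passed an adjusted p of 0.05, which is 0.00562% of the genes tested. Rragd encodes RagD, a small GTPase that, with RagA or RagB, brings mTORC1 to the lysosome when amino acids are plentiful, and it lies on chromosome 4. Its level was 203, 250, 270, 211 and 214 CPM in the controls and 95.5, 95.6, 82.2 and 101 CPM in the Pbrm1-fl tumours. The Pbrm1-fl values lay in a narrow band below every control, and Rragd fell by 1.29 ± 0.13 on the log2 scale (adjusted p = 0.046). The adjusted p was close to its threshold: the size of the fold changed little when any library was left out, from -1.34 to -1.22, but the call was kept only when control 5 was the one left out, and the adjusted p rose to between 0.0632 and 0.23 without any other library. The call was also lost with sex as a covariate (adjusted p = 0.0938), with only controls 3 to 5 (adjusted p = 0.278), and with a block on close mouse numbers, chosen after seeing the data (adjusted p = 0.11). Of 18 alternatives in all, the Rragd call was lost in 12. Without control 4 there was 1 gene that passed, and it was not Rragd. In the Rag, Ragulator and MiT/TFE amino acid sensing list, 23 of 34 tested genes were higher. The list's median log2 fold change was 0.143, or 0.0858 without Pbrm1-fl tumour 3. At an unadjusted p under 0.05, Rragd was the only lower gene of the list. At that p 3 of the 34 were higher (Slc38a9, Nprl3 and Sesn3), near the 7.85% of all genes. Slc38a9, the lysosomal arginine sensor, had 44.8 to 47 CPM in the 5 controls and 72.5, 82.9, 52 and 55.9 CPM in the Pbrm1-fl tumours. Nprl3, part of the GATOR1 brake on mTORC1, was higher by 0.39 ± 0.12 on the log2 scale. Sesn3, an inhibitor of the same pathway, was higher by 0.64 ± 0.25 (0.378 without Pbrm1-fl tumour 4), and neither gene passed adjustment. Of 33 genes for lysosomal enzymes and membrane proteins, 4 were higher at an unadjusted p under 0.05, against 7.85% of all genes. Among the 4 was Npc1, the cholesterol exporter, at 99.3 to 103 CPM against 54 to 87.8 CPM in controls.

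Below that threshold many genes differed with less certainty. At an unadjusted p under 0.05, 1662 genes (9.34%) were lower and 1397 (7.85%) were higher in Pbrm1-fl tumours, while 37 genes, 19 lower and 18 higher, had an adjusted p under 0.1. The groups did not overlap for 630 lower genes (3.54%) and 583 higher genes (3.28%). These shares are the background for every list described here, and the median log2 fold change over all genes was 0.0114. Other tools called far more genes at an adjusted p of 0.05, 1184 with DESeq2 and 722 with limma voom, so the number of changed genes depended on the test. Because Rragd alone passed the main test, other genes are described as lower or higher and not as changed.

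**Figure D1:**
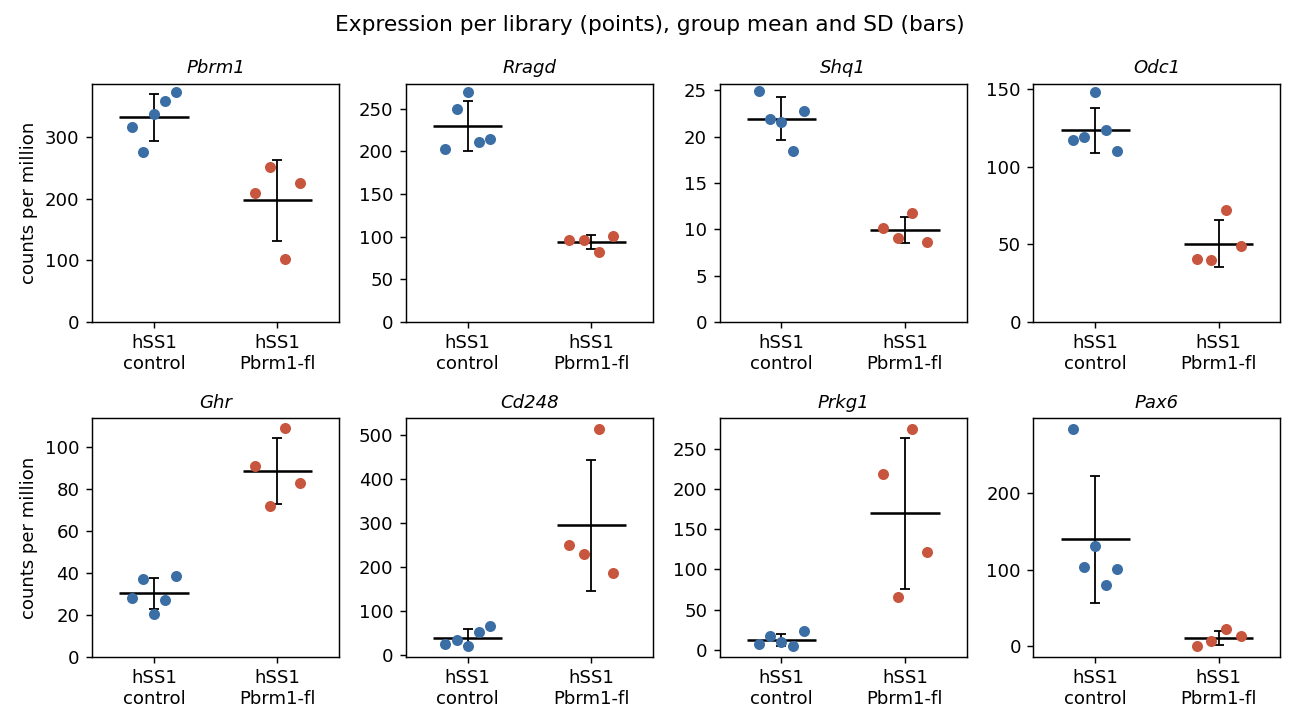
Expression of 8 genes in CPM (vertical axes, linear) in the 5 hSS1 control and 4 hSS1 Pbrm1-fl tumours. Points are libraries, and bars are the group mean and SD. Pbrm1 remained at 102 to 252 CPM in the Pbrm1-fl tumours, Rragd lay at 82.2 to 101 CPM against 203 to 270 CPM, and Pax6 was at most 22.4 CPM against 79.5 to 284 CPM.

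The 12 lower protein-coding genes of smallest p, Rragd among them, encode proteins of different kinds. The rule took only genes with a difference of at least 1 on the log2 scale and groups that do not overlap. Odc1, the rate-limiting enzyme of polyamine synthesis, had 117, 119, 148, 124 and 110 CPM in controls and 40.6, 40.2, 72.1 and 49 CPM in Pbrm1-fl tumours. Shq1, an assembly factor for box H/ACA ribonucleoproteins, had 18.5 to 24.9 CPM in controls and 8.63 to 11.8 CPM in Pbrm1-fl tumours. Rpl35a, a protein of the large ribosomal subunit, and Snrpe, a core protein of the spliceosome, were lower by 1.01 ± 0.15 and 1.1 ± 0.19 on the log2 scale. The chromatin proteins H1fx, a linker histone, and Hmgb2, a DNA-bending protein abundant in dividing cells, were lower by 1.42 ± 0.2 and 1.17 ± 0.21. Rgs3 and Rgs8, which shorten signals from G proteins, stood at 31.4 to 44.2 CPM and 5 to 12 CPM in Pbrm1-fl tumours against 59.7 to 88.5 CPM and 22.5 to 137 CPM in controls. Inka2, an inhibitor of the kinase PAK4, was lower by 1.24 ± 0.22 on the log2 scale.

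The pair with the greatest contrast among these lower genes had few reads in the Pbrm1-fl tumours. Syt6, a synaptotagmin of secretory vesicles, had 6.12, 6.44, 30.9, 3 and 5.47 CPM in controls and 0.0949 to 0.272 CPM in Pbrm1-fl tumours. Kcnj11, the pore of the ATP-sensitive potassium channel, had 2.14 to 6.68 CPM in controls and 0.0949 to 0.449 CPM in Pbrm1-fl tumours. No fold is given for either, because those levels rest on a few reads per library.

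The 12 higher genes of smallest p by the same rule included receptors, enzymes and a matrix proteoglycan. Ghr, the growth hormone receptor, had 27.8, 37.1, 20.5, 26.9 and 38.2 CPM in controls and 90.8, 71.7, 109 and 82.8 CPM in Pbrm1-fl tumours, a log2 fold change of 1.56 ± 0.21. Cd248, the endosialin of pericytes and activated fibroblasts, had 21.1 to 65.2 CPM in controls and 251, 229, 514 and 186 CPM in Pbrm1-fl tumours. Prkg1, the kinase that carries cyclic GMP signals in smooth muscle, rested at 5.15 to 23.1 CPM in controls and at 218, 65.3, 274 and 121 CPM in Pbrm1-fl tumours. The lowest Pbrm1-fl tumour was above the highest control for all 3, as the rule required. Podn, a small leucine-rich matrix proteoglycan, and Pla2g4a, the phospholipase that releases arachidonic acid, were higher by 2.64 ± 0.43 and 2.82 ± 0.48 on the log2 scale. Ppara, the nuclear receptor for fatty acid breakdown, stood at 5.66 to 9.21 CPM against 2.14 to 2.9 CPM. Ldhd, a D-lactate dehydrogenase, Gstt3, a glutathione transferase, and Arsa, the lysosomal arylsulfatase A, were higher by 1.16 ± 0.17, 1.36 ± 0.21 and 1.07 ± 0.18. Pde4a, which degrades cyclic AMP, and Ogfod1, a ribosomal prolyl hydroxylase, were higher by 1.49 ± 0.25 and 1.05 ± 0.17. Gabra4, a GABA receptor subunit, rested at 0.171 to 0.715 CPM in controls and spread from 2.09 to 20.8 CPM in Pbrm1-fl tumours. Adjusted p values of these 24 genes ran from 0.046 for Rragd to 0.111 for Hmgb2 and Rgs8.

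**Figure D2:**
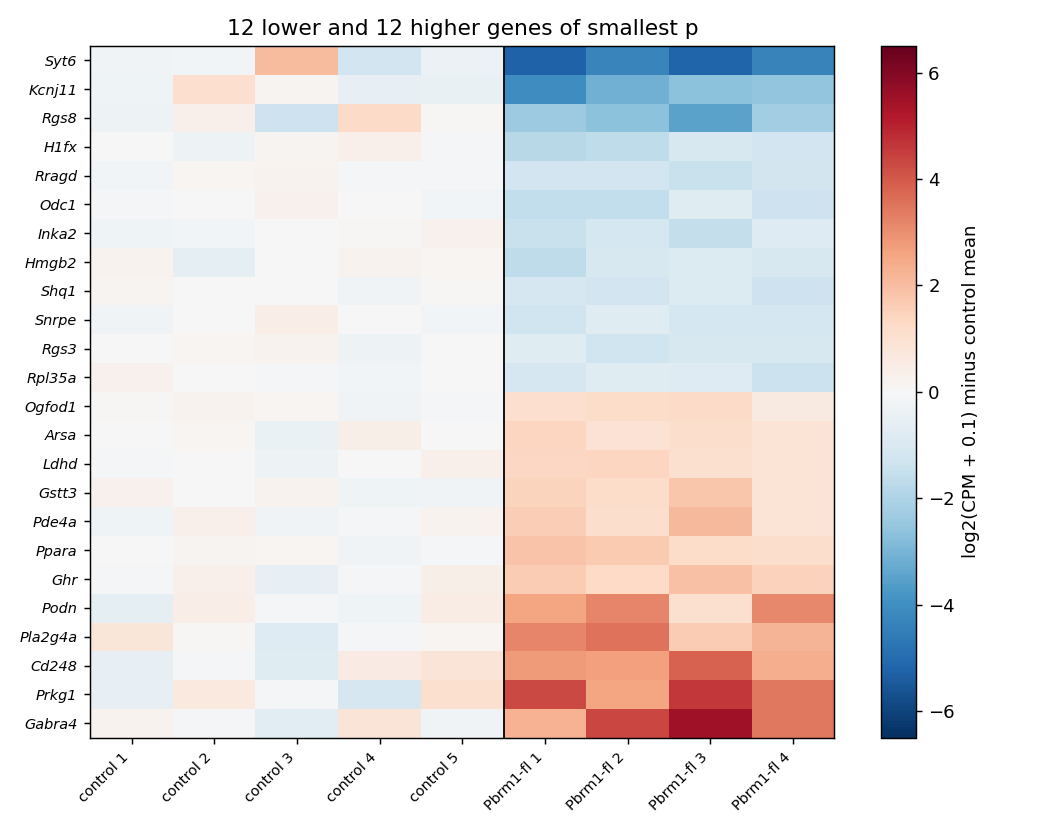
The 12 lower and 12 higher protein-coding genes of smallest p (rows), in 9 tumours (columns), coloured by log2(CPM + 0.1) minus the mean of the 5 controls. Control columns are pale apart from tumour-specific values such as Syt6 in control 3 (30.9 CPM), and the 4 Pbrm1-fl columns share 1 colour in each row, because the rule took only genes whose groups do not overlap.

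Ribosomal protein genes formed the most uniform list. All 46 had a log2 fold change under 0, and 40 of the 46 were lower at an unadjusted p under 0.05 against 9.34% of all genes, with a median of -0.557. Rpl32 had 827, 571, 605, 442 and 531 CPM in controls and 276, 353, 191 and 280 CPM in Pbrm1-fl tumours, Rpl8 was lower by 0.69 ± 0.14 and Rps14 by 0.75 ± 0.18 on the log2 scale. The mean score of the list, which is the average over its genes of log2 CPM minus the mean of the 9 libraries, still overlapped between groups, from -0.0848 to 0.637 in controls and from -0.594 to 0.0836 in Pbrm1-fl tumours, with Pbrm1-fl tumour 2 the highest of its group. Ribosomal protein genes have many near-identical pseudogenes, and how reads that fit several places were counted is not given in the sources used here, so each value is uncertain to that extent. Ribosome biogenesis genes were lower in 24 of 28 cases, 8 of them at an unadjusted p under 0.05, including Dkc1, the pseudouridine synthase of the H/ACA particle that Shq1 helps to assemble (-0.9 ± 0.22), Ncl, nucleolin (-0.75 ± 0.2), and Utp20, a processome component (-0.52 ± 0.14).

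Features of the RNA moved with these lists. Malat1, a nuclear long noncoding RNA, had 12300, 14600, 12400, 11600 and 13000 CPM in controls and 21600, 22900, 21300 and 20600 CPM in Pbrm1-fl tumours, with no overlap. Neat1, another nuclear RNA, showed no such pattern, at 114 to 374 CPM and 169 to 1140 CPM. Among 8833 protein-coding genes above 20 CPM in controls, those in the shortest sixth by longest transcript, up to 2220 bases, had a median log2 fold change of -0.118, or -0.103 without the ribosomal protein genes, and the other sixths had medians between -0.0246 and 0.000984. The median transcript length of the ribosomal protein genes was 1139.5 bases. Across sixths of GC content the median ran from -0.063 in the lowest to 0.0442 in the highest. The part of RNA composition in the ribosomal protein values was not tested.

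Genes of cell division were lower in Pbrm1-fl tumours with a larger median difference. Of the 36 proliferation genes, 35 had a log2 fold change under 0, 19 at an unadjusted p under 0.05, and the median was -0.812. Cenpf, a kinetochore protein made late in the cell cycle, had 254, 194, 280, 344 and 243 CPM in controls and 58, 110, 152 and 125 CPM in Pbrm1-fl tumours, with every Pbrm1-fl tumour below every control. Cenpa, the centromeric histone, and Ccnb1, cyclin B1, were lower by 1.17 ± 0.28 and 1.24 ± 0.31 on the log2 scale, with the same order of groups. Cenpf, Cenpa and Ccnb1 were the only 3 of the 36 genes lower without overlap, against 3.54% of all genes. The list's score separated the groups except for control 2: it was 0.32, 0.269, 0.803 and 0.652 in controls 1, 3, 4 and 5 and -0.443 in control 2, against -1.04, -0.409, -0.0164 and -0.139 in Pbrm1-fl tumours. Control 2 held the most skeletal muscle RNA, and the part of muscle in its score was not tested. The median of the list was -0.635 without Pbrm1-fl tumour 1 and -1.13 without Pbrm1-fl tumour 3. Without controls 2 and 3, the most muscle-rich, it was -1.01.

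Oxidative phosphorylation and splicing genes showed smaller differences of the same sign. For subunits of the respiratory chain, 31 of 38 were lower, 12 at an unadjusted p under 0.05 and none higher at it, with a median of -0.245, or -0.155 without Pbrm1-fl tumour 2. Ndufa4 (-0.94 ± 0.19) and Cox5a (-0.69 ± 0.16) had groups that did not overlap. Of 31 splicing factors, 7 were lower and 1 was higher at an unadjusted p under 0.05, with a median of -0.156, or -0.0995 without Pbrm1-fl tumour 3 and -0.0997 without control 3. Hnrnpa2b1 averaged 422 CPM with an SD of 45.8 in Pbrm1-fl tumours and 652 CPM with an SD of 70.9 in controls, and Srsf1 stood at 202 to 234 CPM against 273 to 339 CPM. Hnrnpu was lower by 0.46 ± 0.14 and Srsf11 was higher by 0.38 ± 0.16 on the log2 scale (0.248 without Pbrm1-fl tumour 2).

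**Figure D3:**
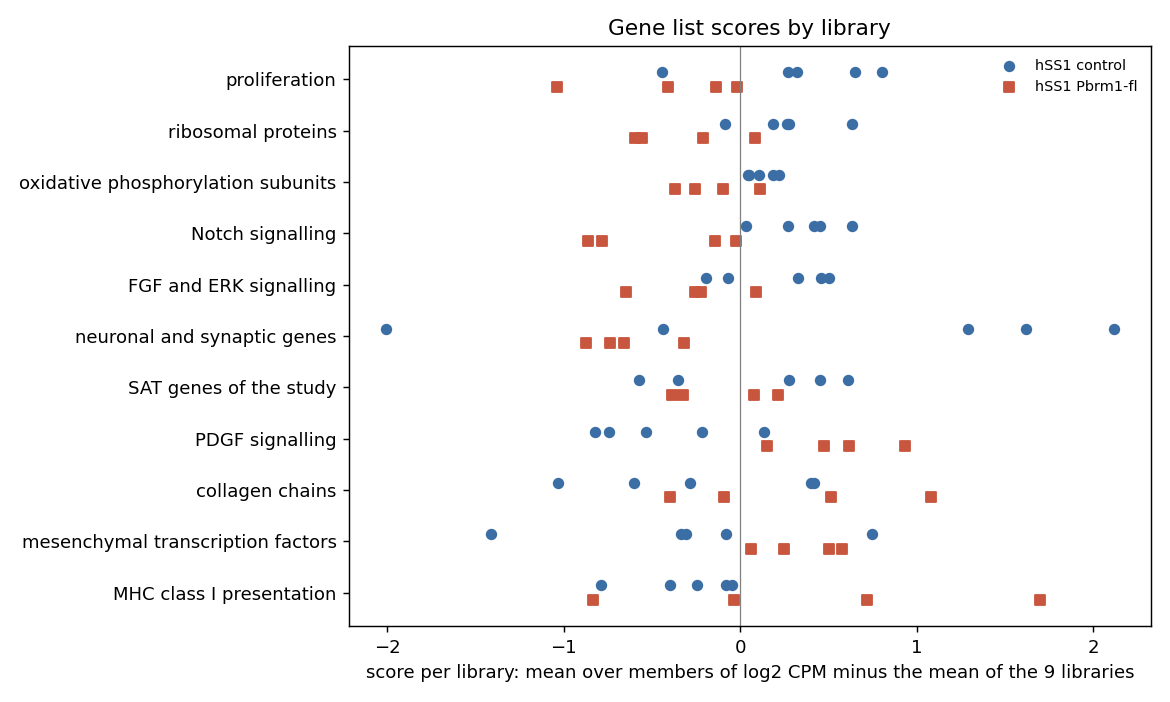
Score of 11 gene lists in each library (horizontal axis: mean over the list's genes of log2 CPM minus the mean of the 9 libraries), with circles for the 5 hSS1 control and squares for the 4 hSS1 Pbrm1-fl tumours. Notch and PDGF signalling scores did not overlap between groups, proliferation overlapped only through control 2, and neuronal genes split the controls, with 3 above 1.2 and control 5 at -2.01.

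Notch signalling genes were lower as a group. Notch is a receptor that, once bound by a ligand on a neighbouring cell, is cut and enters the nucleus to switch on its targets. Of 21 genes tested, 19 had a log2 fold change under 0 and 8 were lower at an unadjusted p under 0.05, none higher, with a median of -0.468, or -0.812 without Pbrm1-fl tumour 3. The ligand Dll4, typical of sprouting endothelium, had 36.2, 43.6, 32.8, 31.8 and 45.9 CPM in controls and 16.9, 15.5, 26 and 14.2 CPM in Pbrm1-fl tumours. The ligand Jag1 stood at 216 to 347 CPM in controls and 59.4 to 203 CPM in Pbrm1-fl tumours, and Nrarp, a target that feeds back on the pathway, was lower by 1.51 ± 0.43 on the log2 scale. The list's score ran from 0.0306 to 0.637 in controls and from -0.861 to -0.0224 in Pbrm1-fl tumours, without overlap. The summed level of the 17 endothelial markers, 436 to 725 CPM in controls and 312 to 639 CPM in Pbrm1-fl tumours, overlapped, and its part in the Dll4 values was not tested.

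Other pathways that act through receptors differed gene by gene. In the FGF and ERK list, 20 of 23 genes were lower, 6 at an unadjusted p under 0.05 and none higher at it, with a median of -0.359, or -0.177 without control 4. Phlda1, induced by growth factor signalling, had 135, 205, 482, 212 and 151 CPM in controls and 15.3, 71.6, 47 and 48.2 CPM in Pbrm1-fl tumours, and the ligand Fgf8 and the ERK phosphatase Dusp4 were lower by 1.58 ± 0.47 and 1.27 ± 0.41 on the log2 scale. In the PDGF list of 7 genes, the ligand Pdgfa was lower, at 39.5 to 85.8 CPM against 105 to 159 CPM, while 4 genes were higher at an unadjusted p under 0.05. Pdgfd, another ligand, had 0.929 to 7.48 CPM in controls and 31.7, 20.2, 133 and 28.4 CPM in Pbrm1-fl tumours. Pdgfra, the receptor for PDGF-A chains, had 115, 266, 127, 376 and 248 CPM in controls and 486, 364, 520 and 405 CPM in Pbrm1-fl tumours, with only Pbrm1-fl tumour 2 inside the control range. Pdgfrl, a receptor-like protein, was higher by 1.32 ± 0.48 on the log2 scale at levels of a few CPM.

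TGF-beta, BMP and Wnt genes went both ways. Grem1, a secreted BMP antagonist, had 12, 27.5, 6.6, 7 and 20.2 CPM in controls and 35.2, 69, 101 and 252 CPM in Pbrm1-fl tumours. Id1, a BMP target that blocks differentiation factors, had 6.79 to 62 CPM in controls and 108 to 156 CPM in Pbrm1-fl tumours. Tgfb1 was higher by 0.67 ± 0.28 on the log2 scale, and the receptor Tgfbr1 was lower by 0.65 ± 0.19. Of 32 genes tested in this list, 5 were higher and 3 lower at an unadjusted p under 0.05, against 7.85% and 9.34% of all genes. In the Wnt list of 35 tested genes 4 were higher and 2 were lower at it, near the same shares of all genes. The higher ones included the ligand Wnt11 (1.23 ± 0.42) and the secreted inhibitors Sfrp2 (1.89 ± 0.73) and Sfrp5 (2.88 ± 0.9). The lower ones were Tcf7l1 (-0.59 ± 0.18) and Sp5 (-1.37 ± 0.45). Sfrp2 rested on Pbrm1-fl tumour 3, at 656 CPM, and its log2 fold change was 0.423 without it. Sfrp5 rested on Pbrm1-fl tumour 1, at 16.1 CPM, and its log2 fold change was 1.23 without it.

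Genes of the mesenchymal state were higher on balance. Among 20 mesenchymal transcription factors, 6 were higher and 1 was lower at an unadjusted p under 0.05, against 7.85% and 9.34% of all genes. Their median was 0.553, or 0.467 without control 5 and 0.893 without control 2. Over the alternatives that did not leave out single libraries it ran from 0.274 to 1.13. Twist1 had 12.3, 38.7, 27.1, 40 and 44.8 CPM in controls and 43.3, 106, 291 and 152 CPM in Pbrm1-fl tumours. Osr1, a factor of connective tissue precursors, had 0.143 to 47.8 CPM in controls and 53.4 to 317 CPM in Pbrm1-fl tumours. Foxd2 was higher by 1.55 ± 0.57 and Zeb2 lower by 0.95 ± 0.33 on the log2 scale. Of 33 collagen chains, 9 were higher and 1 was lower at an unadjusted p under 0.05, with a median of 0.539, or 0.264 without Pbrm1-fl tumour 1. Col6a2 had 24.5 to 95.8 CPM in controls and 318, 367 and 290 CPM in Pbrm1-fl tumours 1, 2 and 4, but 41.7 CPM in tumour 3. The basement membrane chains Col4a5 and Col4a6, neighbours on the X chromosome, reached 1030 and 490 CPM in Pbrm1-fl tumour 1 and at most 331 and 48.8 CPM in the other Pbrm1-fl tumours, and Col22a1 was lower, at most 1.45 CPM in Pbrm1-fl tumours against 0 to 31.2 CPM in controls. The fibroblast markers Gsn and Dcn were higher, Gsn at 73.2 to 104 CPM against 31.9 to 69.7 CPM and Dcn at 123, 959, 118 and 18.2 CPM against 0.929 to 116 CPM. The summed level of all 17 fibroblast markers was 1170 to 3370 CPM in Pbrm1-fl tumours and 610 to 3490 CPM in controls, where Dpt, a defining marker of host fibroblasts, reached no more than 0.475 CPM in any tumour. The part of host fibroblasts in the collagen and PDGF values was not tested.

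The neural genes of synovial sarcoma were lower against some of the controls. Of 31 neuronal and synaptic genes tested, 13 were lower and 1 was higher at an unadjusted p under 0.05, with a median of -1.37. Dcx, a microtubule protein of young neurons, had 51.2, 58.1 and 116 CPM in controls 1 to 3 but 5 and 1.06 CPM in controls 4 and 5, and 0.51 to 1.08 CPM in the Pbrm1-fl tumours. Tubb3, neuronal tubulin, followed the same order at 60, 105 and 87.2 CPM, then 5.29 and 1.82 CPM, against 0.714 to 2.26 CPM. Rbfox3, the neuronal splicing factor known as NeuN, did not overlap between groups, at 11.1 to 27.4 CPM in controls and 3.62 to 8.77 CPM in Pbrm1-fl tumours. Dlg4, the PSD-95 scaffold, was higher by 0.31 ± 0.12 on the log2 scale. The median of the list was -0.903 without control 2 and -0.00305 without controls 2 and 3, so its size rested on those tumours, and the list score of control 5, -2.01, lay below every Pbrm1-fl tumour.

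Epithelial genes divided the controls along the same line. The score of the list was 1.93, 1.51 and 1.87 in controls 1 to 3 and -2.22 and -2.65 in controls 4 and 5, with Pbrm1-fl tumours between, at 0.636, -0.553, 0.245 and -0.769. Cldn6, a tight junction protein of embryonic epithelia, had 154, 72.7 and 140 CPM in controls 1 to 3, 0.143 and 0.288 CPM in controls 4 and 5, and 0 to 6.27 CPM in Pbrm1-fl tumours. Marveld2, tricellulin, was lower by 2.76 ± 1.07 on the log2 scale. Of the 34 genes tested, 28 were lower, but only 2 of them at an unadjusted p under 0.05, below the 9.34% of all genes. The first principal component of the most variable genes, 33.4% of their variance, set controls 1 to 3 apart from the other 6 tumours, so the largest axis of difference was not the genotype.

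Pax6 stood out among transcription factors typical of these tumours. It is a homeodomain regulator of eye, brain and pancreas, and had 284, 103, 131, 79.5 and 101 CPM in controls and 0.38, 6.43, 22.4 and 13.4 CPM in Pbrm1-fl tumours, with no overlap (log2 fold change -3.71 ± 0.89, adjusted p = 0.125 by edgeR). Paupar, a noncoding RNA transcribed beside Pax6, had 2.09 to 7.27 CPM in controls and 0 to 0.181 CPM in Pbrm1-fl tumours. Both lie on chromosome 2, and Paupar is named after its values were seen. Nnat, an imprinted gene of developing brain, and Tle4, a corepressor, were lower by 2.34 ± 0.81 and 0.53 ± 0.17 (Nnat at -3.84 without Pbrm1-fl tumour 4), while Tle2, another corepressor of that family, and Nell1, a secreted osteogenic factor, were higher by 0.98 ± 0.21 and 2.55 ± 0.56 on the log2 scale. The 36 synovial sarcoma markers as a whole had a median of -0.0288, near that of all genes.

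SAT and MAT genes are groups that the authors drew from single cell RNA of stromal cells of origin and of transformed synovial sarcoma cells: SAT genes come on with transformation, and MAT genes are active in both. Of 178 SAT genes tested, 24 were lower and 8 were higher at an unadjusted p under 0.05, against 9.34% and 7.85% of all genes. The lower ones included Rgs8 and Pax6, and the higher ones included Lypd6b, Nell1 and Kctd8. The SAT median was -0.259, or -0.435 without Pbrm1-fl tumour 3, -0.4 without tumour 4 and -0.196 without tumour 1. Of 349 MAT genes tested, 33 were lower and 24 higher, near the 9.34% and 7.85% of all genes, with a median of 0.0118. Rpl35a, Dgkd, a diacylglycerol kinase, and Rps14 led the lower MAT genes, and Pde4a, Polr3gl, an RNA polymerase subunit, and Fyco1, an autophagosome adaptor, led the higher ones. Of 31 Hox genes tested, which mark position along the body and limb, 2 were higher (Hoxd3 and Hoxd1) and 1 was lower (Hoxa2) at an unadjusted p under 0.05. Both counts were below the shares of all genes, and Hox levels spread widely within each group.

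Antigen presentation genes were higher on average, mainly through 1 tumour. All 18 genes of MHC class I presentation had a log2 fold change above 0, 7 at an unadjusted p under 0.05, with a median of 1.13. Tapbp, tapasin, which loads peptides onto class I molecules, had 239, 243, 150, 370 and 294 CPM in controls and 735, 444, 662 and 428 CPM in Pbrm1-fl tumours, without overlap. H2-T22, a nonclassical class I gene with close paralogs that may share its reads, and Psmb9, an immunoproteasome subunit, were higher by 1.07 ± 0.35 and 1.71 ± 0.61, the latter by 0.951 without Pbrm1-fl tumour 3. The list's score was -0.0326, -0.835, 1.7 and 0.721 in Pbrm1-fl tumours 1 to 4 and -0.791 to -0.0457 in controls, so tumours 3 and 4 were above every control and tumour 2 was below all of them. Without Pbrm1-fl tumour 3 the median was 0.448. Interferon-stimulated genes had the same shape, with a score of 1.71 in Pbrm1-fl tumour 3 and -1.23 in tumour 2 against -0.857 to 0.325 in controls, and their median of 0.629 became -0.254 without tumour 3 and -0.129 with limma voom. The 7 MHC class II genes had a median of 1.23, none at an unadjusted p under 0.05, and a median of 0.157 without tumour 3. The 18 T and NK cell markers summed to 56.7 CPM in Pbrm1-fl tumour 3 and to 4.51 to 15.1 CPM in the other 8 tumours, but 42.4 CPM of that sum was Trac, a T cell receptor chain. The defining T cell markers Cd3e and Trbc2 were at 0.102 CPM each in that tumour, and Cd4 was at 0.306 CPM, its lowest of the 9.

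The summed level of every cell type list overlapped between groups, and several varied widely among tumours. Macrophage markers were lower in 12 of 15 tested genes, 3 of them at an unadjusted p under 0.05. Lyz2, lysozyme of myeloid cells, had 42.7 to 101 CPM in controls and 39.4, 31.3, 33.6 and 17.6 CPM in Pbrm1-fl tumours. Trem2, a lipid receptor, and Cd68, a lysosomal glycoprotein, were lower by 1.81 ± 0.44 and 0.88 ± 0.39 on the log2 scale. The groups did not overlap for Lyz2 and Trem2 but did for Cd68. Csf1r, which defines the lineage, overlapped at 15.3 to 35.9 CPM and 13.9 to 61.5 CPM, and the 16 markers summed to 142 to 354 CPM in controls and 138 to 334 CPM in Pbrm1-fl tumours. Skeletal muscle RNA marked particular libraries. The summed level of 22 muscle fibre genes was 5380 CPM in control 2, 1440 CPM in control 3 and 259 CPM in Pbrm1-fl tumour 4, against 31.8 to 79 CPM in the other 6. The muscle list's median log2 fold change of -2.82 came from those controls and became 2.08 without them. Erythroid genes were highest in control 5, with a summed level of 1560 CPM against 23.8 to 367 CPM elsewhere. The Y-linked gene Ddx3y was at 83 CPM in control 2 and 90.5 CPM in Pbrm1-fl tumour 3 and at most 0.18 CPM in the other 7, so each group held 1 tumour with this Y-linked expression. Control 2 also had 162 CPM of Xist, the X inactivation RNA, against 11.2 CPM in Pbrm1-fl tumour 3.

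Across the genome the clearest regional shift was on chromosome 6. For each library the median over a chromosome's genes of log2 CPM minus the control mean was taken. On chromosome 6, with 906 genes tested, it was 0.0858, 0.0715, -0.00346, -0.205 and 0.0737 in the controls and -0.393, -0.418, -0.519 and -0.326 in Pbrm1-fl tumours. Every Pbrm1-fl tumour was below every control, and the mean difference of -0.418 exceeded in size the largest of any other chromosome, 0.185. The two-sided exact permutation test gave p = 0.0159 for chromosome 6, and 0.159 after adjustment over 20 chromosomes. The smallest p that 4 tumours against 5 allow is 0.00794. That value was not reached, because putting control 4 with the 4 Pbrm1-fl tumours gave a larger difference than the division by genotype. No chromosome passed adjustment, and 4 had an unadjusted exact permutation p under 0.05. Chromosome 7 had the same p with a difference of 0.0577.

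**Figure D4:**
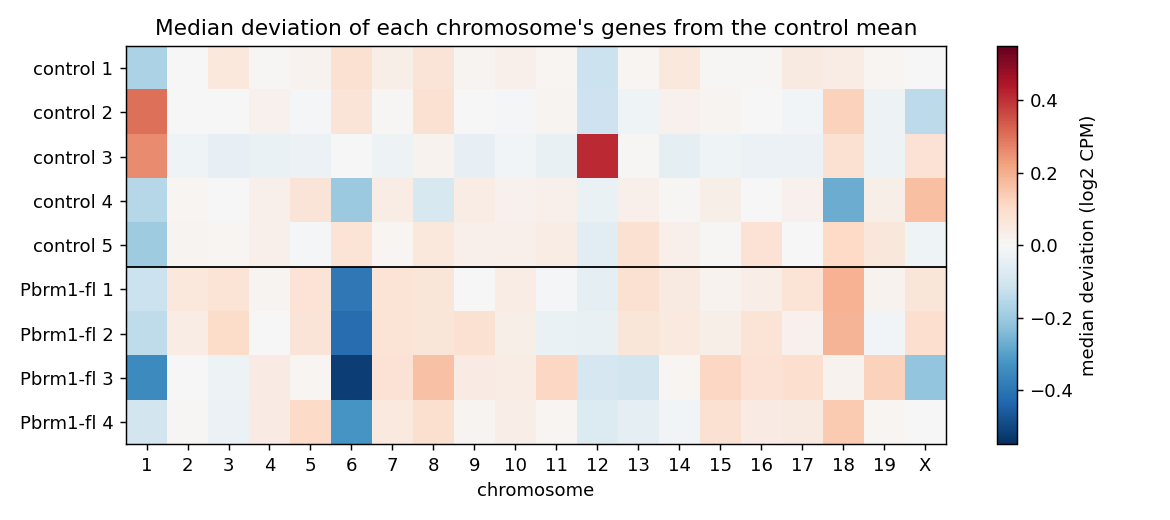
Median deviation from the control mean (colour, log2 CPM) of the genes of each chromosome (columns, 19 autosomes and X) in each tumour (rows). Chromosome 6 is lower in all 4 Pbrm1-fl tumours and in control 4, chromosome 1 is higher in controls 2 and 3, and chromosome 12 is higher in control 3 alone.

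The lower expression took in most genes of chromosome 6. Of the 906 genes, 714 (78.8%) had a log2 fold change under 0, against 47.4% of 16414 genes on the other chromosomes. At an unadjusted p under 0.05, 262 (28.9%) were lower and 15 (1.66%) were higher, against 8.4% and 8.21% elsewhere. Of the 19 lower genes with an adjusted p under 0.1, 9 were on chromosome 6. The 4 of smallest p were Cnbp, a nucleic acid binding protein that promotes translation, H1fx, Uba3, a subunit of the NEDD8 activating enzyme, and Shq1. Cnbp had 309, 283, 241, 264 and 289 CPM in controls and 141, 169, 151 and 157 CPM in Pbrm1-fl tumours. Uba3 had 96.9 to 123 CPM and 57.2 to 67.3 CPM, and H1fx 68.7 to 107 CPM and 24.7 to 40.9 CPM. Rpl32, Ndufa4, Hnrnpa2b1, Tcf7l1 and Hoxa2, described above with their lists, also lie on chromosome 6. Without chromosome 6 the ribosomal protein median was -0.556, proliferation -0.813, oxidative phosphorylation -0.238 and neuronal genes -1.27. Each of these was close to its value with all chromosomes.

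Along chromosome 6 the tumours followed different profiles. When tested genes were taken in windows of 25 neighbours, all 36 windows of the chromosome were lower on average in Pbrm1-fl tumours, and in 14 the groups did not overlap, between 3.33 and 137 Mb. Over the 691 windows of the genome, 26 (3.76%) were lower without overlap and 22 (3.18%) were higher, so 12 of the 655 windows on other chromosomes (1.83%) were lower. From 0 to 30 Mb the median deviation was -0.283, -0.312, -0.48 and -0.476 in Pbrm1-fl tumours 1 to 4, and -0.414 in control 4, against 0.136 to 0.154 in the other controls. From 30 to 60 Mb control 4 was again at -0.429, within the Pbrm1-fl values of -0.352 to -0.544. From 90 to 120 Mb control 4 had returned to -0.0174, while Pbrm1-fl tumours 1 to 3 remained at -0.533, -0.52 and -0.607 and Pbrm1-fl tumour 4 was at -0.18. From 120 to 150 Mb Pbrm1-fl tumour 4 was at -0.0149, among the controls at -0.0953 to 0.0621, and Pbrm1-fl tumours 1 to 3 were at -0.441, -0.463 and -0.524.

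**Figure D5:**
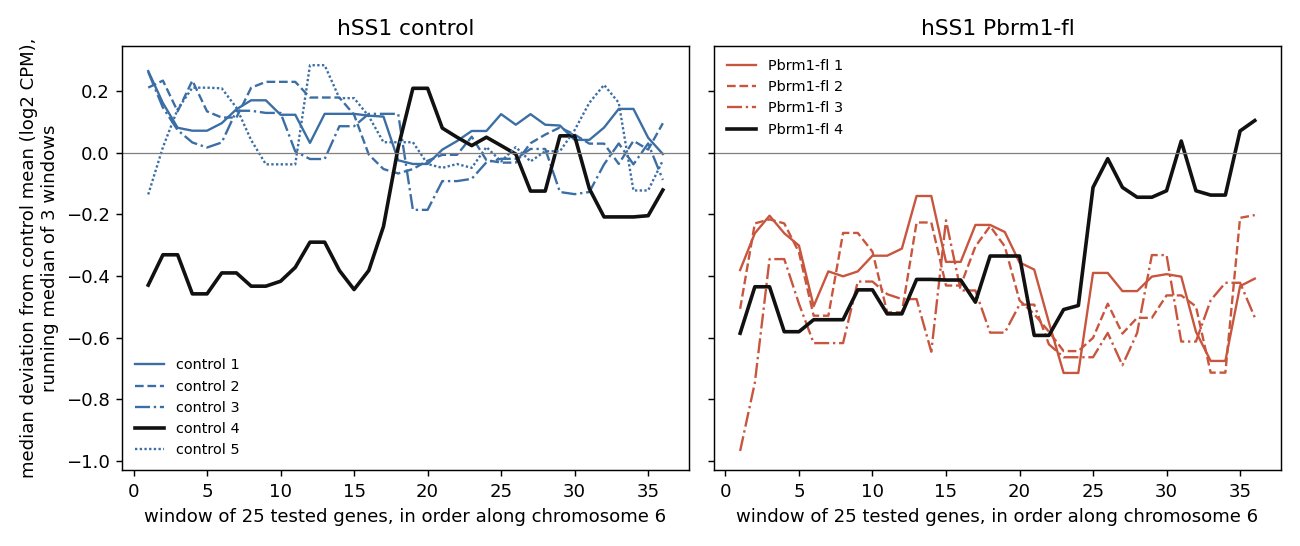
Median deviation from the control mean (vertical axis, log2 CPM, running median of 3 windows) along chromosome 6 in windows of 25 tested genes (horizontal axis, in genome order), with 1 line per tumour and control 4 and Pbrm1-fl tumour 4 in black. Pbrm1-fl tumours 1 to 3 stay below 0 along the chromosome, control 4 is low over the first windows and then joins the other controls, and Pbrm1-fl tumour 4 is low until about window 24 and near the controls beyond.

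Thus chromosome 6 expression was lower along its length in 3 tumours, all Pbrm1-fl, and over a first part in Pbrm1-fl tumour 4 and in control 4. The Rosa26 locus that carries the fusion allele in both groups lies on the same chromosome, with the noncoding gene Gt(ROSA)26Sor at chr6:113067428-113077333 of GRCm38. Its own RNA was at 3.36 to 5.65 CPM in controls and 4.49 to 8.63 CPM in Pbrm1-fl tumours. Its neighbours were chosen after the shift was seen. Setd5, a chromatin regulator, had 566 to 611 CPM in controls, 406, 426 and 405 CPM in Pbrm1-fl tumours 1 to 3 and 575 CPM in tumour 4. Thumpd3, which overlaps the Rosa26 gene on the other strand, had 40.3 to 59.2 CPM in controls and 28.1 to 38.1 CPM in Pbrm1-fl tumours. DNA was not measured in these tumours, so a change of copy number and a change of transcription over the region cannot be told apart.

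Other chromosomes deviated in particular tumours of either group. Chromosome 1 deviated by 0.305 and 0.261 in controls 2 and 3. Deviations are taken from the control mean, so these high values push the other tumours below 0. The other controls were at -0.155 to -0.194. Pbrm1-fl tumours 1, 2 and 4 were at -0.118, -0.141 and -0.101, no lower than those controls, and tumour 3 was at -0.349. Chromosome 12 was at 0.409 in control 3 and between -0.12 and -0.0357 in the other controls, and chromosome 18 was at -0.272 in control 4. Such shifts were therefore found in tumours with and without the floxed allele, and only on chromosome 6 did one recur in all 4 Pbrm1-fl tumours without overlap and with a size above 0.1.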

How the data were processed

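Total RNA from 9 bulk tumours was depleted of ribosomal RNA, made into stranded libraries and sequenced in pairs. Per the labels, the authors aligned reads to mm10 with STAR 2.7.11 and deposited unnormalized gene counts made with featureCounts 1.6.3; the annotation release, strand setting and treatment of reads that fit several genes are not given in the sources used here. The table held 56941 genes, of which 91.3% (98.1% of counts) had a symbol in GENCODE M21. A second table, of SS18::SSX2 tumours, was not used here. Counts were filtered with filterByExpr, scaled by TMM and tested with edgeR 4.0.16 (robust quasi-likelihood, two-sided) in R 4.3.3, with Benjamini-Hochberg adjustment over 17786 genes and a threshold of 0.05. Log2 CPM used a prior count of 2. DESeq2 1.42.0 and limma 3.58.1 served as alternatives. Scripts were tested on simulated data. Groups came from the labels. Replicates are separate mice, and no 2 libraries of a group agreed within sampling noise.

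Genes named in the text are Pbrm1 and the BAF subunits, those past the threshold, the 12 lower and 12 higher protein-coding genes of smallest p that differed by 1 or more on the log2 scale, averaged 1 CPM or more and had groups that do not overlap, up to 3 list members per direction at an unadjusted p under 0.05, and the 4 lower genes of smallest p on chromosome 6. Of the genes this rule takes, 2 are not reported here. Malat1, Neat1, Paupar, marker genes and the genes around Rosa26 were named after their values were seen. Members and lists were chosen with earlier results of these data known. Lists were described by counts and medians with no test. Alternatives were another scaling, no filter, a non-robust fit, other tools, controls 3 to 5 alone, sex as a covariate, windows of 50 genes, leaving out each library, and, chosen after seeing the data, a block on close mouse numbers and leaving out controls 2 and 3 or chromosome 6.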

Additional observations from a re-analysis of the deposited data

Results flagged for a closer look

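Of 366 groups of values examined (named genes, list scores and chromosomes, in each group of tumours), 17 held 1 tumour far from the rest of its group by Dixon's criterion, or 4.64%, and chance flags about 1 in 20 groups. Values for genes are log2 CPM. In Pbrm1-fl tumour 3, which had Y-linked expression, Col6a2 (5.39), Bicral (7.02), Hoxa2 (-0.776), Bcl7c (5.69) and Brd7 (5.64) lay below the other 3 tumours. The median deviation of chromosome 1 (-0.349) in that tumour did so too. In Pbrm1-fl tumour 4 the synovial sarcoma marker score (0.476) was above the other 3. In control 4, Smarca2 (9.24) and Tgfb1 (5.67) were above and Brd7 (5.34) and chromosome 18 (-0.272) below the other controls. In control 3, chromosome 12 (0.409) was above and Trem2 (1.21) below. In control 1, Rpl8 (9.07) was above and Sfrp5 (-1.5) below. In control 5, Slc38a9 (5.56) was above, in a group whose other values were 5.49 to 5.5, and Pdgfrl (-0.837) was below.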

How the results depend on the processing

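The count of changed genes, 1 in the main analysis, was 0 with only controls 3 to 5, whose mouse numbers begin with 1 as do those of all Pbrm1-fl mice, 0 with sex as a covariate and 0 with a block on a run of close mouse numbers (controls 3 and 4 and Pbrm1-fl tumours 1 and 2, chosen after seeing the data), 1184 with DESeq2, 722 with limma voom and 37 at an adjusted p under 0.1, and ran from 0 to 4 when each library was left out. Beside those counts of 0, 1913 genes with controls 3 to 5 and 2818 with that block had an unadjusted p under 0.05 by edgeR, where the main count was 3059, limma voom gave 4757, and leaving out controls 2 and 3 (chosen after seeing their muscle RNA) gave 2020. Pbrm1 was lower throughout, from -0.875 to -0.522 without single libraries and from -0.855 to -0.592 otherwise. The neuronal median was -0.00305 without controls 2 and 3, the Notch median -1 and the MHC class I median 0.317 with limma voom, and the Notch median ran from -0.812 to -0.38 without single libraries. The chromosome 6 difference was -0.209 with no filter, which adds genes with few reads, and -0.463 to -0.382 without single libraries. The windows without overlap, 48 in the main analysis, numbered 75 with controls 3 to 5, 79 without controls 2 and 3, 24 with windows of 50 genes and 53 to 108 without single libraries, since smaller groups overlap less often by construction; on chromosome 6, 25 of 35 windows were lower without overlap when control 4 was left out. Signs of BAF subunits near 0 turned: Bcl7c was 0.0116 with limma voom, the Brd9 log2 fold change was -0.00306 with controls 3 to 5, and without controls 2 and 3 Arid1a was 0.0497, Smarcd2 0.0151, Arid2 0.022 and Brd9 -0.0808. Without single libraries Ss18l1 ran from -0.0393 to 0.423, Smarcb1 from -0.167 to 0.0361 and Brd9 from -0.0175 to 0.124. No paired analysis was possible because the labels give mouse numbers and no shared replicate numbers, and name no litter for the mice whose numbers run together. The causes of these differences were not tested. With 4 against 5 tumours, and medians that rest on few reads for low genes, small differences were not detectable.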

Other observations

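Some other lists had few members past an unadjusted p of 0.05 by edgeR, and none past adjustment. Of all genes, 9.34% were lower and 7.85% higher at that unadjusted p. Of 18 circadian clock genes 3 were higher, namely the output factor Dbp and the activators Clock and Npas2, and none was lower. Of 11 genes of polycomb repressive complex 2 tested, the core subunit Suz12 and the cofactor Aebp2 were lower and Phf1 was higher. Of 24 p53 targets tested, 3 were lower and 1 was higher. All 13 mitochondrially encoded genes had a log2 fold change under 0, with a median of -0.227, but none reached an unadjusted p of 0.05, and their scores overlapped, from -0.348 to 0.0624 in Pbrm1-fl and from -0.217 to 0.405 in control tumours.

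Markers of plasma and B cells summed to 44.7 CPM in Pbrm1-fl tumour 1 and to 6.72 to 25.6 CPM in the other 8 tumours. Tendon markers summed to 105 and 94.4 CPM in Pbrm1-fl tumours 1 and 2, and to 16.2 to 57.4 CPM in the rest.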
